A study of Mus musculus with 6 samples.

Results

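The 7 genes described here encode the inhibitors of cyclin-dependent kinases (CDKs) of the mouse: the INK4 family, with Cdkn2a, Cdkn2b, Cdkn2c and Cdkn2d, and the CIP/KIP family, with Cdkn1a, Cdkn1b and Cdkn1c. They were found on the array through the RefSeq accession printed for each probe, and are 7 of the 21368 genes that could be named in this way, with 10 of the 55681 probes. The study asked which genes differ in expression between young and aged skin, and took the epidermis of the tail from wild-type C57BL/6 mice that carried no transgene or other allele named in the labels. Tail skin of every mouse was soaked in EDTA so that the epidermis came away from the dermis. The young group held 3 samples from mice of 8 weeks, and the aged group held 1 sample of 22 months (replicate 1) and 2 samples of 25 months (replicates 2 and 3). Each sample was hybridised alone, in 1 colour, and separate animals are not stated in the labels. P-values here therefore cover only the differences among the 6 samples, which may be technical.

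CDK inhibitors hold the cell cycle in G1. INK4 proteins bind CDK4 and CDK6 and keep them from pairing with D-type cyclins, so that the retinoblastoma protein stays unphosphorylated and E2F factors stay silent. CIP/KIP proteins bind cyclin-CDK complexes, above all those of CDK2, and p21, the product of Cdkn1a, is the classical target of p53 through which DNA damage stops the cycle. Cdkn2a is unusual in that it has a pair of promoters and first exons, which are spliced to shared exons in different reading frames. One transcript encodes the INK4 protein p16Ink4a and the other encodes p19Arf, which is not a CDK inhibitor and stabilises p53 by binding MDM2. In the epidermis, keratinocytes leave the cycle as they move out of the basal layer, and Cdkn2a is widely used as a marker of senescent cells in ageing tissues.

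The windows before the start sites of Cdkn2a and Cdkn1a are shown because both genes have 2 starts in the RefSeq table and both were read by 2 probes that did not behave alike. The 250 bases before each start are given 5′ to 3′ on the gene's strand, from RefSeq on GRCm38.p6. Capitals mark matches, on either strand, to the GC box GGGCGG, to TATAA, to CCAAT or to the half-site consensus of p53.
Cdkn2a, start nearer to the shared exons, chr4:89282193-89282442, minus strand: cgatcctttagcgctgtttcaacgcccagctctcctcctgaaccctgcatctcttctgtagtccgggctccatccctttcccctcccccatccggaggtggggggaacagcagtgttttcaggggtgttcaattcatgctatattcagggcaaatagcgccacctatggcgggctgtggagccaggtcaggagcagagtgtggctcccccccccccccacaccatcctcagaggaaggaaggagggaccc
Cdkn2a, start farther upstream, chr4:89294620-89294869, minus strand: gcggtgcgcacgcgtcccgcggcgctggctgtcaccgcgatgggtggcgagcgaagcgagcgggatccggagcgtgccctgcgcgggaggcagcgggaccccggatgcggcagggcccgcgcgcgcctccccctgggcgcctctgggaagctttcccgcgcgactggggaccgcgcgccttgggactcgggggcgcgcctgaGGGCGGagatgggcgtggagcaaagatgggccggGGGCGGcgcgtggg
Cdkn1a, start farther upstream, chr17:29090729-29090978, plus strand: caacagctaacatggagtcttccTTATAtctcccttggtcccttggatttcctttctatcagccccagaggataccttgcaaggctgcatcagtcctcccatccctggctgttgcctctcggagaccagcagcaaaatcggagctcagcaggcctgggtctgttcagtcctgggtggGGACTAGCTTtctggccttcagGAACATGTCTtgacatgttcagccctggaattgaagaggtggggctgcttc
Cdkn1a, start nearer to the coding exons, chr17:29093519-29093768, plus strand: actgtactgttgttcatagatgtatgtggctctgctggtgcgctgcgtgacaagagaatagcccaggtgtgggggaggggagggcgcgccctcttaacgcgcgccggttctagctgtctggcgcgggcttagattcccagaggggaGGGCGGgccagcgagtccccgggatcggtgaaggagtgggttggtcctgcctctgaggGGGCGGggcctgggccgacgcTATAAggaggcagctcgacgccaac

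The start of Cdkn2a that lies farther upstream, which by its place in the gene is that of p19Arf, had 40 CpG dinucleotides in its 250 bases and 2 GC boxes. Fewer CpG dinucleotides were found in 98.7% of the 32851 windows of the table. The other start, that of p16Ink4a, had 7 CpG dinucleotides and no match to any of these motifs. In Cdkn1a the upstream window held 2 CpG dinucleotides, 1 TATAA match and 2 half-sites of p53. The window nearer to the coding exons held 19 CpG dinucleotides, 2 GC boxes and a TATAA match that began 25 bases before the start. A GC box was found in 32.7% of all windows, TATAA in 22.8%, CCAAT in 33.8%, a p53 half-site in 7.13% and 2 or more half-sites in 0.259%. Of the 7 genes 6 had a window in this table, and the exception was Cdkn1c. A match is a run of letters and not a measured binding site.

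Levels are given on the log2 scale of the processed scanner signal, with the 75th percentile of each array set to 0. The percentile lay between 230.2 and 300.3 signal units, the scanner's own flag marked 50.02% to 54.38% of probes on an array as well above background, and 0 spots were saturated. Differences are aged minus young, with the standard error and the Benjamini-Hochberg adjusted p of limma over 25066 features. Of 14135 tested genes 11, or 0.0778%, passed an adjusted p of 0.05, 6 of them higher in aged epidermis and 5 lower. Without aged replicate 1 this count was 809, and without any other array, or with replicates blocked by number, it was 0 (1321 to 2710 genes at an unadjusted p under 0.05). Over all tested genes the difference had a median of 0.09 log2 units, and 63.6% of them had a higher mean in aged epidermis. The Y-linked genes Eif2s3y and Ddx3y were detected in replicate 1 of both groups and on none of the other arrays. The precision of every value is limited by the number of arrays, and an exact permutation test of 3 values against 3 could give no p under 0.1, so none was run. In bulk tissue, fewer cells of a type and less RNA per cell cannot be told apart.

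Cdkn2a was the 1 member of the 7 that passed the threshold, and it entered the test through its 3 aged arrays alone. Its brighter probe (A_55_P2008437, assigned to NM_009877) gave processed signals of 8.43, 7.31 and 5.79 units in young replicates 1, 2 and 3, and of 90.0, 48.6 and 42.8 units in aged replicates 1, 2 and 3. None of the young signals was well above background, where the lowest signals so marked lay between 8.95 and 11.2 units over the 6 arrays, and each of the aged signals was. On the log2 scale the young values were -5.05, -5.16 and -5.51, and the aged values were -1.74, -2.52 and -2.43. The groups did not overlap, and the lowest aged value lay 2.53 log2 units above the highest young one.

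Since no young signal was well above background, the change is given as a bound. In aged epidermis Cdkn2a was 5.89-fold above the lowest signals so marked on the young arrays (n = 3 arrays per group). The young signals of the probe lay below that level. The bound is not strict, since a signal above the lowest one so marked can still miss the mark. The second probe of Cdkn1a did so in young replicate 1, at 9.21 against 8.95 units. The bound itself was not tested. The limma adjusted p of 0.0354 belongs to the difference of the measured values, 3.01 log2 units, in which undetected young signals count as measured. The filter of at least 3 of 6 arrays was thus met only in the group where the probe is high, so a difference in detection was a condition of the test. The bound sets the mean of the aged arrays against the mean of, per young array, the higher of the probe's own signal and the lowest signal well above background. The measured log2 means with their SD were -5.24 ± 0.24 for the 3 young and -2.23 ± 0.43 for the 3 aged samples. The highest level was found in the sample of 22 months, and those of 25 months were lower. The sample of 22 months was also the aged sample with Y-linked transcripts, so its age and this difference cannot be told apart. With the replicate number as a block the difference stayed at 3.01, with an SE of 0.17 against 0.25 in the main fit. The limma adjusted p there was 0.153, in a setting where 0 of all tested genes passed. The call also ended when young replicate 1, 2 or 3 or aged replicate 2 or 3 was left out (adjusted p from 0.113 to 0.191), while the bound stayed between 5.53-fold and 6.52-fold. Without aged replicate 1 the adjusted p was 0.00327 and the bound was 4.97-fold.

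The dimmer probe of Cdkn2a (A_55_P2008438), which the array assigns to the same accession, was well above background on 0 of 6 arrays. Its log2 values ran from -6.91 to -6.62 in young and from -6.87 to -6.39 in aged epidermis, so the groups overlapped. The files give no probe sequence and no position in the transcript. Whether the brighter probe reads the exons that p16Ink4a and p19Arf share or an exon of one of them was therefore not determined, and the rise is one of Cdkn2a transcript without a split between the promoters printed above.

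**Figure D1:**
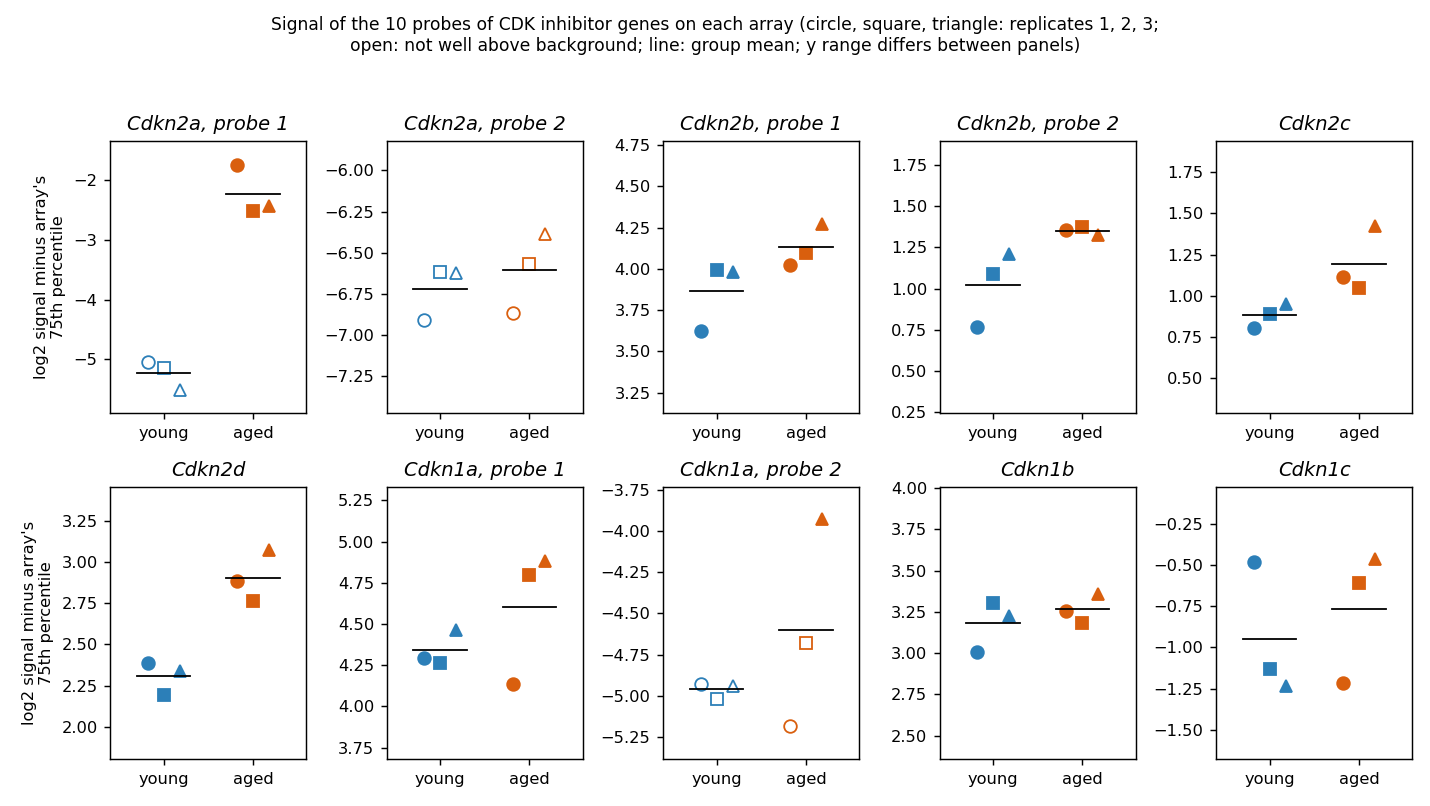
Log2 signal minus the array's 75th percentile (y axis, a different range in each panel) of each of the 10 probes, with young and aged samples side by side. Circles, squares and triangles are replicates 1, 2 and 3, open symbols are signals not well above background, and lines are group means. Cdkn2a probe 1 is open on 3 young arrays and filled on 3 aged arrays, and Cdkn1a probe 1 and Cdkn1c have aged replicate 1 below both other aged samples.

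Cdkn2b encodes p15Ink4b, an INK4 inhibitor known for its induction by TGF-beta, and lies beside Cdkn2a on chromosome 4. It was well above background on all 6 arrays with both of its probes. The brighter probe had log2 values of 3.62, 3.99 and 3.98 in young replicates 1, 2 and 3 and of 4.03, 4.10 and 4.28 in aged replicates 1, 2 and 3. The groups were separated by only 0.03 log2 units, and under quantile normalization they overlapped. The difference was 0.27 ± 0.15 (SE, 1.20-fold, limma adjusted p = 0.383), with a 95% interval from 0.935-fold to 1.55-fold. The second probe gave 0.77, 1.09 and 1.21 in young and 1.35, 1.37 and 1.33 in aged epidermis, and a difference of 0.33 ± 0.14 (limma adjusted p = 0.303 with every probe tested as its own feature). On both probes young replicate 1 was the lowest of the 6 samples. A change of Cdkn2b as large as the bound of its neighbour Cdkn2a therefore lies outside the interval of the fit.

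Cdkn2c and Cdkn2d encode p18Ink4c and p19Ink4d, the INK4 proteins encoded away from the Cdkn2a locus. Cdkn2c had log2 values of 0.80, 0.89 and 0.95 in young replicates 1 to 3 and of 1.11, 1.05 and 1.42 in aged replicates 1 to 3. The groups did not overlap, with 0.10 log2 units between them, and the difference of 0.31 ± 0.14 (1.24-fold) did not pass (limma adjusted p = 0.299).

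Cdkn2d had the smallest p after Cdkn2a among the 7 genes. Its log2 values were 2.39, 2.19 and 2.34 in young replicates 1 to 3 and 2.88, 2.76 and 3.07 in aged replicates 1 to 3. Each aged sample lay above each young sample, with a gap of 0.37. The difference was 0.60 ± 0.13 (SE, 1.51-fold, 95% interval from 1.22-fold to 1.89-fold, unadjusted p = 0.00348 by limma), and it did not pass the threshold over all features (adjusted p = 0.138). The 22-month sample stood 0.58 above the young mean, and the 25-month samples stood 0.61 above it on average.

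Cdkn1a, the gene of p21, was bright, and its probe (A_51_P363947) was spotted 10 times on each array. The log2 values were 4.29, 4.27 and 4.46 in young replicates 1, 2 and 3 and 4.13, 4.80 and 4.88 in aged replicates 1, 2 and 3. The 22-month sample was the lowest of the 6 and the 25-month samples were the highest, so the groups overlapped. The difference was 0.26 ± 0.22 (SE, 1.20-fold, limma adjusted p = 0.545), with a 95% interval from 0.830-fold to 1.74-fold. The spots of one array differed by an SD of 0.027 to 0.043 log2 units, against an SD of 0.11 between the young samples and 0.41 between the aged samples. Aged replicate 1 is the sample of another age and also the aged sample with Y-linked transcripts, and these cannot be told apart. Without it the difference was 0.50 and the adjusted p was 0.0965.

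The second probe of Cdkn1a (A_55_P1986282) is assigned to another transcript accession, NM_001111099, and was well above background on aged replicate 3 only. Its values were -4.93, -5.02 and -4.94 in young and -5.18, -4.68 and -3.93 in aged replicates 1 to 3, and no test was run on it. The table of start sites does not say which start of Cdkn1a belongs to which accession.

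Cdkn1b encodes p27Kip1, an inhibitor of quiescent cells that is controlled largely through the stability of its protein. Its values were 3.01, 3.30 and 3.23 in young and 3.26, 3.18 and 3.36 in aged replicates 1 to 3. The groups overlapped, and the difference was 0.09 ± 0.13 (1.06-fold, limma adjusted p = 0.745), with a 95% interval from 0.857-fold to 1.32-fold. The estimate lay close to the median of all tested genes, and under quantile normalization it was -0.0050.

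Cdkn1c encodes p57Kip2, an imprinted gene that is expressed from the maternal allele. Its values were -0.48, -1.13 and -1.24 in young and -1.22, -0.61 and -0.47 in aged replicates 1 to 3. Young replicate 1 lay with aged replicates 2 and 3, and aged replicate 1 lay with young replicates 2 and 3, so the groups overlapped throughout their range. The difference was 0.19 ± 0.28 (1.14-fold, limma adjusted p = 0.756), with a 95% interval from 0.706-fold to 1.83-fold. Without both samples numbered 1 it was 0.64 with an adjusted p of 0.0926.

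**Figure D2:**
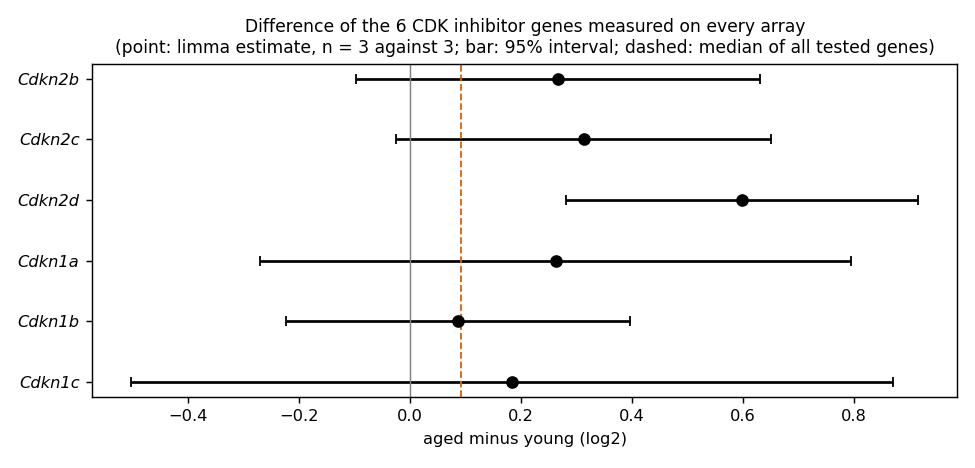
Aged minus young difference on the log2 scale (x axis) of the 6 genes that were well above background on every array, as the limma estimate with its 95% interval (n = 3 against 3). The dashed line is the median of all tested genes, 0.09, and only the interval of Cdkn2d lies wholly above 0.

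Across the family all 7 genes had a higher mean in aged epidermis, against the 63.6% of tested genes given above. The groups did not overlap for 4 of the 7, the 4 INK4 genes, with the aged samples higher, as for 19.5% of all tested genes, and overlapped for the 3 CIP/KIP genes. Under quantile normalization 3 genes were left without overlap, namely Cdkn2a, Cdkn2c and Cdkn2d. An unadjusted p under 0.05 was found for 2 of the 7, Cdkn2a and Cdkn2d, both higher in aged epidermis, as for 11.4% of tested genes. Cdkn2a met the filter through its aged arrays alone, so its place in these counts was in part a condition of the test. The split between the families was seen in the values and was not tested.

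**Figure D3:**
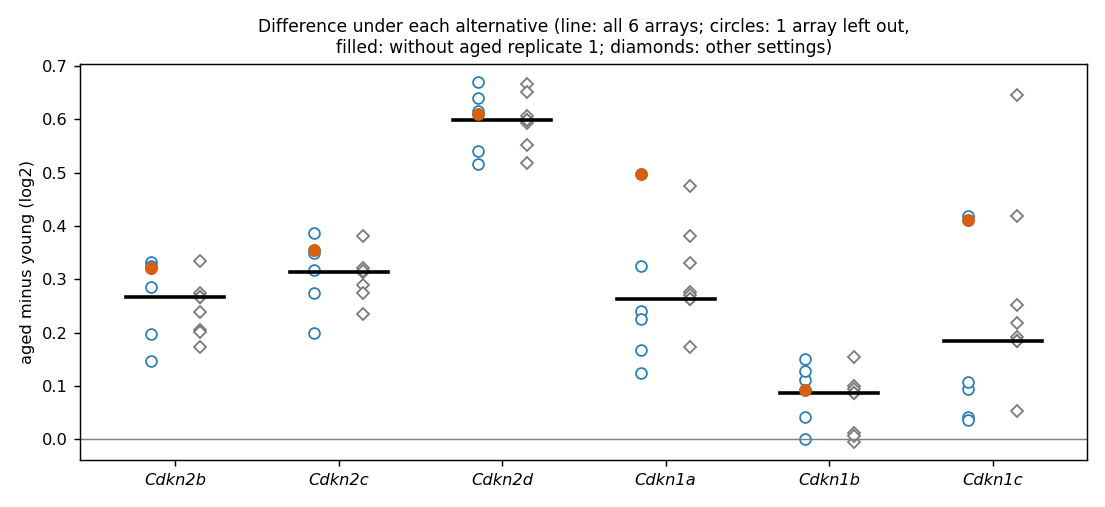
Aged minus young difference on the log2 scale (y axis) of 6 genes under each other way of processing. The thick line is the value with all 6 arrays, circles leave out 1 array each (filled: aged replicate 1), and diamonds are the other settings. Cdkn2d stays between 0.52 and 0.67, Cdkn1b crosses 0, and Cdkn1a is highest without aged replicate 1.

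The genes nearest to each member were found among 14134 other tested genes by the root mean square difference over the 6 arrays, after each gene was centred on its own mean. A likeness to the member in its difference or on single arrays is thus how these genes were chosen, and not a further result. For Cdkn2a, whose values had a root mean square of 1.53 around their mean, they were Amhr2 (a distance of 0.33 log2 units), Isl2 (0.45) and Rgs7bp (0.45). Amhr2, which encodes a receptor for anti-Müllerian hormone, was higher by 3.03 log2 units (limma adjusted p = 0.00756) and was well above background on all 6 arrays. Isl2, a LIM homeobox gene, was like Cdkn2a well above background on 3 aged and 0 young arrays. Rgs7bp was so on 3 aged arrays and 1 young array. Low values shared by undetected probes enter these distances.

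For the other members the nearest genes lay within 0.11 log2 units, and between 2 genes (for Cdkn1c) and 509 genes (for Cdkn1b) lay within 0.1. Cdkn2b was nearest to Boc, Asxl1 and Slc26a6, and Cdkn2c to Prxl2b, Sptssa and Rxrb. Cdkn2d was nearest to Eola1, Scin and Rps6ka1, whose differences of 0.58, 0.55 and 0.60 did not pass (limma adjusted p from 0.122 to 0.153). Cdkn1a was nearest to Cpne2, Ripk1 and Wfdc18, which shared its low value in aged replicate 1. Cdkn1b was nearest to Pdxp, Abcf3 and Gas6. Cdkn1c was nearest to Abhd8, Fgfbp1 and 1700007K13Rik, all of which were higher in young replicate 1 than in the other young samples.

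The kinases, cyclins and regulators around the inhibitors were taken as 9 lists with 84 genes, of which 77 were tested. None of the 77 passed the threshold with all 6 arrays (limma). A higher mean in aged epidermis was found for 63 of the 77, and for 8996 of all 14135 tested genes (63.6%). An unadjusted p under 0.05 with a higher mean was found for 10 of the 77, against 1607 of all tested genes (11.4%). With a lower mean it was found for 1 of the 77. In either direction 2498 of all tested genes had such a p. The groups did not overlap, with the aged samples higher, for 15 of the 77, against 19.5% of all tested genes. Their median difference was 0.21 log2 units, against 0.09 for all tested genes.

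Among the targets of INK4 proteins, Cdk4 and Cdk6 differed by 0.04 ± 0.13 and 0.13 ± 0.13 on the log2 scale, and the D-type cyclin genes Ccnd1, Ccnd2 and Ccnd3 by 0.45 ± 0.19, 0.31 ± 0.23 and 0.24 ± 0.14. Ccne1, the cyclin that activates CDK2 at the entry to S phase, had values of 0.51, 0.02 and 0.11 in young and 0.93, 0.77 and 0.64 in aged replicates 1 to 3. It did not overlap between the groups and differed by 0.57 ± 0.17 (limma adjusted p = 0.197). Cdk2 differed by 0.18 ± 0.12, and Ccne2 was well above background on 0 arrays. All 7 tested genes of this list had a higher mean in aged epidermis, with a list median of 0.24, and 1 had an unadjusted p under 0.05.

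Of the 13 pocket protein and E2F genes, 9 had a higher and 4 a lower mean in aged epidermis, with a median of 0.21. E2f5, a factor that acts with pocket proteins as a repressor, had the smallest p and was lower in all aged than in all young samples, with a difference of -0.40 ± 0.13 (limma adjusted p = 0.211). E2f6, a repressor that does not bind pocket proteins, differed by 0.30 ± 0.11 (adjusted p = 0.231). Rb1 and E2f1 differed by 0.21 ± 0.11 and 0.31 ± 0.17, with overlap of the groups.

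Genes that act after the G1 block had larger medians. The list of S phase and mitosis cyclins and kinases had a median of 0.43 over 9 genes, of which 8 had a higher mean and 4 an unadjusted p under 0.05, beside the shares of all tested genes just given. The median deviation of the list from each gene's young mean was 0.23 in young replicate 1, above the 0.18 of aged replicate 3. Cdk1, the kinase of mitosis, had values of -0.55, -1.12 and -0.95 in young and -0.12, -0.17 and -0.40 in aged replicates 1 to 3, a difference of 0.65 ± 0.18 without overlap (limma adjusted p = 0.184). Its cyclins Ccnb1, Ccnb2 and Ccna2 differed by 0.60 ± 0.19, 0.60 ± 0.19 and 0.43 ± 0.16 (adjusted p from 0.207 to 0.239). The 9 proliferation and replication genes all had a higher mean in aged epidermis, with a median of 0.31. Young replicate 1 stood with the aged samples on this list, with a median deviation of 0.38 against 0.30, 0.39 and 0.25 in aged replicates 1 to 3 and -0.22 and -0.14 in young replicates 2 and 3. Mki67, the gene of the proliferation marker Ki-67, differed by 0.31 ± 0.12 (adjusted p = 0.263) and did not overlap, while Mcm6, Mcm4 and Pcna, at 0.48 ± 0.21, 0.31 ± 0.15 and 0.28 ± 0.15, did.

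The ubiquitin ligases that mark p21, p27 and p57 for degradation had a list median of 0.09 over 10 genes, 7 higher and 3 lower. Cks1b, the cofactor that lets SKP2 recognise p27, differed by 0.50 ± 0.13 and did not overlap between the groups (limma adjusted p = 0.167), and Ddb1 differed by 0.39 ± 0.14 (adjusted p = 0.233). Skp1 and Rbx1, subunits of the ligase, differed by 0.15 ± 0.18 and -0.14 ± 0.17, and Skp2 itself by 0.16 ± 0.21.

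Of 19 transcriptional regulators of the inhibitor genes, 17 were tested, 13 with a higher and 4 with a lower mean, and the median was 0.17. Foxo3, which activates Cdkn1b, differed by -0.39 ± 0.16 and Bmi1, the Polycomb protein that represses Cdkn2a, by 0.38 ± 0.17, both without overlap (limma adjusted p = 0.276 and 0.304). Foxo4 and Ezh2, the Polycomb methyltransferase, differed by 0.43 ± 0.25 and 0.26 ± 0.15 with overlap. Trp53, the gene of p53, differed by -0.29 ± 0.18 (adjusted p = 0.437). Id1, an inhibitor of helix-loop-helix factors known to repress Cdkn2a, had values of 4.09, 4.13 and 4.34 in young and 3.84, 5.02 and 5.18 in aged replicates 1 to 3. Its aged samples stood in the same order as those of Cdkn1a, with aged replicate 1 lowest, the sample that differs in age and in Y-linked transcripts. Without aged replicate 1, Id1 was higher by 0.91 ± 0.14 and passed the threshold (limma adjusted p = 0.0268). It was the 1 listed pathway gene that passed in that setting, beside 809 of all tested genes.

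Of the genes that lie next to Cdkn2a and Cdkn2b, Mtap differed by -0.11 ± 0.26 (limma adjusted p = 0.853), and Dmrta1 and Elavl2 were well above background on 0 arrays. Among genes with similar names but outside both families, Cdkn3, a phosphatase gene that acts on CDKs, differed by 0.70 ± 0.25 without overlap (adjusted p = 0.235). The other 4 of that list, Cdk2ap1 at 0.25 ± 0.13, Cdkn2aipnl at 0.28 ± 0.16, Cdkn2aip at 0.08 ± 0.16 and Cdk2ap2 at 0.08 ± 0.27, did not pass either. Of 8 senescence-associated genes 6 were tested, with a median of 0.18 and 0 at an unadjusted p under 0.05 (limma). Among them were Lmnb1, a lamin gene known to fall in senescent cells, at 0.08 ± 0.16, Igfbp3 at 0.47 ± 0.22 and Mmp3 at 0.79 ± 0.72.

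**Figure D4:**
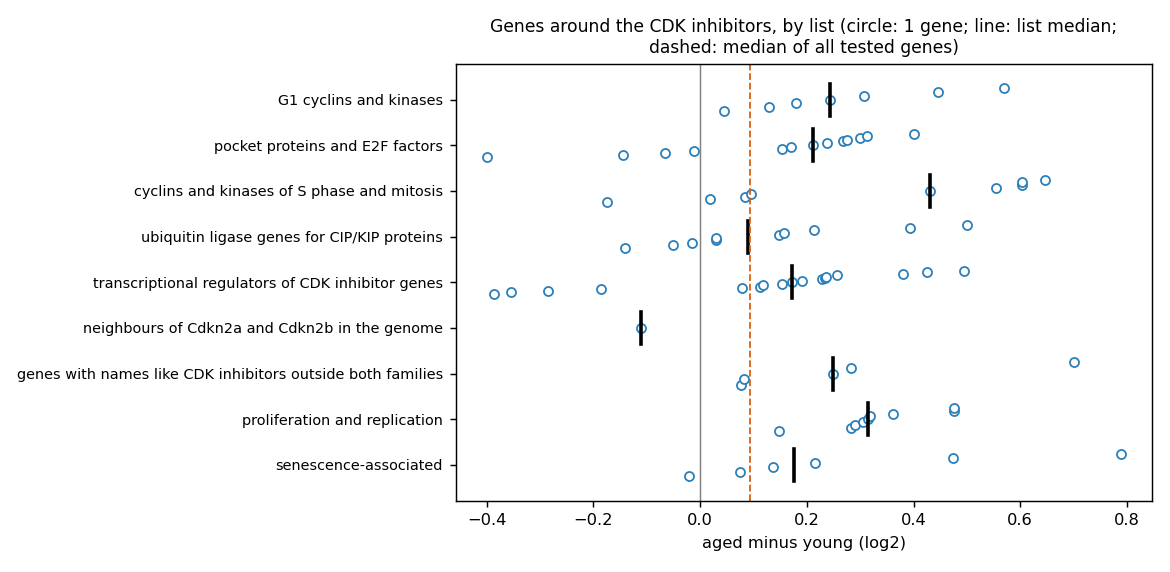
Aged minus young difference on the log2 scale (x axis) of the tested genes of each of 9 lists around the CDK inhibitors. Each circle is a gene, thick lines are list medians and the dashed line is the median of all tested genes, 0.09. The largest list median, 0.43, is that of the cyclins and kinases of S phase and mitosis, and no gene shown passed the threshold.

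The samples carried the markers of the labelled tissue: the 5 keratinocyte genes, Krt5, Krt14, Krt1, Krt10 and Col17a1, were tested, and their summed signal relative to the 75th percentile was 1656 to 1806 in young and 1728 to 1821 in aged samples. Markers of hair, melanocytes and Langerhans cells had lower means in aged epidermis, with large differences among the aged samples. All 5 hair shaft and inner root sheath genes had lower means, with a summed level of 221 to 433 in young and 8.12 to 213 in aged samples. Krt35, a hair keratin, had values of 7.19, 6.08 and 6.61 in young and 6.07, 1.34 and 0.63 in aged replicates 1 to 3, so that aged replicate 1 stood close to the young group. The 5 melanocyte genes, Mlana among them, had lower means too, at 14.6 to 18.6 against 4.81 to 13.2, as were the 4 Langerhans cell genes, at 6.59 to 10.3 against 0.575 to 8.68, with Cd207 lowest in aged replicate 1. None of the genes of these lists passed the threshold, and an unadjusted p under 0.05 was found for 5 of 5 hair, 4 of 5 melanocyte and 0 of 4 Langerhans cell genes (limma). Of all 14135 tested genes 2498 had such a p in either direction, 1607 of them with a higher mean in aged epidermis. Of 5 fibroblast genes 4 were tested, 3 with a lower mean and 1 with a higher mean. Of these, Col1a1 and Col3a1, which encode collagens, were lower and passed the threshold (limma adjusted p = 0.0283 and 0.0467). Their probes were well above background on 5 and 3 of 6 arrays, and Col3a1 met the filter through its 3 young arrays alone. Lum was well above background on 0 arrays. The summed level ran from 5.30 to 8.15 in young and from 2.51 to 20.6 in aged samples. The highest sum was that of aged replicate 1 and came mostly from Dcn, the gene with the higher mean. Dcn had log2 values of 4.34, 1.92 and 1.19 in aged replicates 1 to 3. Of 3 T cell genes 2 were tested (1.12 to 1.22 against 1.21 to 1.24), with Cd3d above background on 0 arrays. They went in opposite directions, and the brighter, Cd3e, outweighs the other in this sum. Cd3e differed by 0.07 ± 0.10 and Cd3g by -0.97 ± 0.73. Cd3g was above background on 3 of 6 arrays and was lowest in aged replicate 1, at -7.12. Of 3 endothelial genes 2 were tested (4.43 to 5.23 against 4.21 to 4.71), with Cdh5 above background on 0 arrays. Of 2 muscle genes Acta1 was tested, at 0.0546 to 0.0732 against 0.0380 to 0.0663, while Ckm and the Merkel cell gene Krt20 were above background on 0 arrays. The part of these cells in the values of the CDK inhibitor genes was not tested.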

How the data were processed

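RNA of 3 young and 3 aged tail epidermis samples was made into amplified cDNA, which carried Cy3 on 1-colour Agilent arrays, per the labels. Each deposited spot value is a linear intensity from which Feature Extraction 11.5.1.1 had subtracted background and a spatial trend, and the design lies on mm9, per the file headers. All arrays share 1 slide and 1 scan. The deposited detection, saturation and outlier flags were kept. The authors' table of log2 values correlated with the scanner values, after centring per probe, with r of at least 0.9999 for each array over 33870 probes. Its column medians ran from -0.02 to 0.07, and its processing is not given in the sources used here.

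Spots of a probe were averaged after control spots and those with an outlier flag (116 to 170 on an array) had been removed. Of 55681 probes 28331 were named through unversioned RefSeq accessions of GRCm38.p6. Probes well above background on at least 3 of 6 arrays were tested, a gene by its brightest probe, in R 4.3.3 with limma 3.58.1 (lmFit, eBayes, no covariate). The arrays' median signal columns stood in for the mean signal in the normexp alternative. The fit was tested on simulated data. The members and lists were chosen with earlier results of these data known. Named were the 7 members with every probe, of each list the genes past the threshold and up to 4 by unadjusted p, the 3 genes nearest to each member, and the first genes of the marker lists. Beyond this rule Cdk4, Cdk6, Ccnd2, Skp2, Trp53, Id1, Cdk2ap2, Cd3g and Dcn were named after their values were seen. One listed gene is not reported here.

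Both groups carry the replicate numbers 1 to 3 in their titles. Samples with the same number deviated together from the means of their groups, with r of 0.414, 0.259 and 0.102 over 25066 features. All were above 0.1, so the numbers were taken as a possible pairing, although the labels name nothing that they share. These 3 values are not independent, because deviations from a group mean sum to 0 within the group. Replicate 1 of both groups also shared the detection of Y-linked transcripts. Young replicate 2, however, matched an aged sample of another number best. The main fit leaves this pairing out, so its standard errors, intervals and p-values are unpaired. With the replicate number as a block 0 genes passed, and Cdkn2a had a limma adjusted p of 0.153.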

Additional observations from a re-analysis of the deposited data

How the results depend on the processing

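The limits are few arrays, 1 slide, 1 aged sample of another age, and young Cdkn2a signals that were not well above background. Cdkn2a kept its direction in all 15 alternatives that gave it a value and passed in 6 of them. It missed the threshold with normexp, whose offset of 50 compresses low signals (difference 0.82, limma adjusted p = 0.0744), with quantile normalization (3.08, adjusted p = 0.0510), with probes above background on at least 1 array (3.01, adjusted p = 0.0865) and with the replicate block (3.01, adjusted p = 0.153). The filter for all 6 arrays removed it. In these 5 settings 0 CDK inhibitor genes passed, with 1 to 3 at an unadjusted p under 0.05 (limma). With each array left out in turn Cdkn2a differed by 2.77 to 3.16, the count of CDK inhibitor genes past the threshold was 0 to 1, that of listed pathway genes 0 to 1 (Id1, without aged replicate 1) and that of all genes 0 to 809, the latter without aged replicate 1 and 0 without any other array (1321 to 2411 at an unadjusted p under 0.05). The count of all genes was 21 when scaled to the median, 7 with quantile normalization, 2 and 3 with the filters for at least 1 and for all 6 arrays, 767 with array weights, 215 without both samples numbered 1 and 0 with the replicate block (2710 at an unadjusted p under 0.05). With array weights, estimated gene by gene, 1 listed pathway gene passed, Cks1b. The cause of these changes was not tested. Cdkn1b turned to -0.0050 under quantile normalization. The block ended every call, those of Amhr2, Col1a1 and Col3a1 included. The other 5 members kept their direction and missed the threshold in all 16 alternatives.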
